A study of Rattus norvegicus with 9 samples.

Results

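This account covers the effect of dermal fibroblast co-culture on rat chondrocytes that had been given IL-1β. The genes described are the 11568 of 17588 genes in the deposited expression matrix that reached at least 1 FPKM (fragments per kilobase of transcript, scaled to the library's mapped fragments) in at least 3 of the 6 libraries compared. The cells were primary chondrocytes of Rattus norvegicus, genotype WT, isolated from cartilage with collagenase II, and the fibroblasts came from skin digested with collagenase I. A transwell kept the chondrocytes in the lower chamber and the fibroblasts in the upper one, so that the cells shared medium through a membrane. Of the 9 libraries, 3 came from chondrocytes cultured alone with IL-1β (the IL-1β libraries), and 3 from chondrocytes with IL-1β and fibroblasts (the co-culture libraries). A further 3 control libraries, from chondrocytes cultured alone with no IL-1β, are given as the untreated level. The labels give no dose of IL-1β, no times and no ratio of the cell types. None of the 9 libraries came from co-culture without IL-1β, so whether the differences depend on IL-1β was not tested. Whether replicates were separate animals, cultures or repeat preparations is not stated; the p-values therefore reflect the spread among these libraries alone, which may be only technical.

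Chondrocytes make and maintain cartilage, a tissue built of type II collagen fibrils and the proteoglycan aggrecan. IL-1β is an inflammatory cytokine of the arthritic joint. Through its receptor it activates the transcription factors NF-κB and AP-1, which switch on cytokines, prostaglandin and nitric oxide synthesis and matrix-degrading proteases, while the cartilage matrix genes decline. Dermal fibroblasts are the matrix-producing cells of the skin and secrete many soluble factors.

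Chondrocyte markers were present: 8 of the 9 in the table passed the threshold, and Col2a1 (type II collagen) stood at 164 to 173 FPKM and Acan (aggrecan) at 87.0 to 91.0 FPKM in the IL-1β libraries. The 27 dermal fibroblast markers matched by symbol summed to 2075 to 2119 FPKM in the IL-1β libraries. In the co-culture libraries they summed to 1378 to 1500.4 FPKM. Of these markers 5, among them Dpp4 and Cd34, were under 1 FPKM in all 6 libraries. Ogn, a further marker listed as gene-Ogn, was not matched. Because these are bulk samples, fewer cells of a type and less RNA per cell cannot be told apart in any of the results that follow. At the edge of the threshold, 170 genes reached 1 FPKM in exactly 3 of the 6 libraries and had a median level of 1.01 FPKM, and 153 genes just outside it reached 1 FPKM in 2 libraries, with a median of 0.893 FPKM. Of those 170 genes, 17 passed through the co-culture libraries alone and 43 through the IL-1β libraries alone. Sums of FPKM ranged from 796262 to 832249 over the 6 libraries; the sequencing depth is unknown. Correlations of log2(FPKM + 1) across genes were 0.994 to 0.995 within the IL-1β libraries, 0.994 within the co-culture libraries and 0.987 to 0.990 between the groups; genes are not independent replicates.

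Many genes differed a little with co-culture and a minority strongly. By limma on log2(FPKM + 1), with an adjusted p under 0.05 (Benjamini-Hochberg over the 11568 genes), 2588 genes, 22.4% of those tested, differed between the groups. Of these, 1392 (12%) were higher and 1196 (10.3%) lower in co-culture. Most differences were small: the median size was 0.20 on the log2 scale for the genes that rose and 0.30 for those that fell, and 94.8% of the rises lay under 0.5. Falls of at least 2-fold numbered 91 (0.787% of the genes tested) against 3 rises (0.0259%). The 3 rises were Hapln1, Lrrc17 and Rpl39, a ribosomal protein gene whose libraries overlapped (382, 114 and 218 FPKM with IL-1β, 512, 611 and 369.7 FPKM with co-culture). Rpl39 lost its call in 7 of 17 alternatives, with adjusted p of 0.0961 without IL-1β replicate 2, 0.0912 without IL-1β replicate 3, 0.0982 without co-culture replicate 1 and 0.134 without co-culture replicate 2. The count of 2-fold rises was 7 without IL-1β replicate 3 and 8 without co-culture replicate 1. The 2-fold falls include Plet1 and Serpinb2, which passed the filter of 1 FPKM through the IL-1β libraries alone. A fall was thereby built into their inclusion. With no filter on low values, 92 genes fell and 3 rose by at least 2-fold. With testing limited to genes averaging 5 FPKM or more, 73 fell and 3 rose. Across all genes tested the median log2 change was 0.02, with 5% of genes below -0.35 and 5% above 0.26. The libraries of the groups did not overlap for 4372 genes (37.8%), among them 1378 of the 1392 that rose and 1188 of the 1196 that fell.

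**Figure D1:**
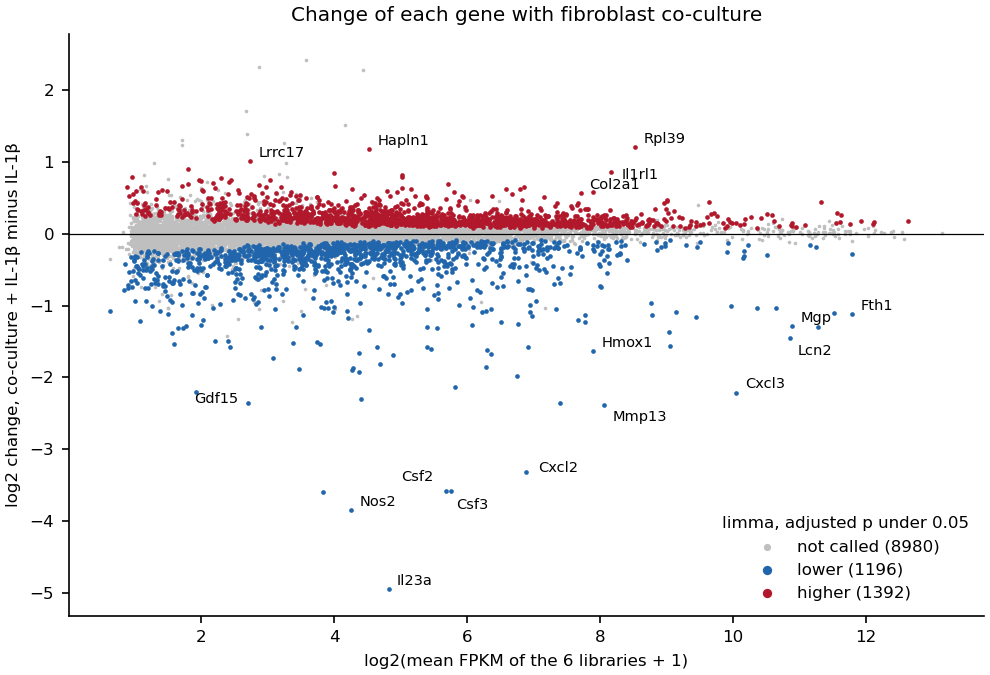
Each point is one of the 11568 genes, with its mean level over the 6 libraries on the x axis (log2 of FPKM + 1) and its log2 change with co-culture on the y axis; coloured points passed limma at an adjusted p under 0.05. The 1196 genes called lower reach down to a log2 change of -4.94 (Il23a), while 1320 of the 1392 called higher stay under 0.5.

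The largest falls were in secreted inflammatory signals. The 12 largest falls (among genes averaging 5 FPKM or more in the higher group, placeholder symbols left out) held 6 chemokines or colony-stimulating factors. Il23a, which encodes the p19 chain of interleukin 23, stood at 58.8, 50.8 and 51.3 FPKM in the IL-1β libraries and at 0.70, 0.49 and 1.19 FPKM in the co-culture libraries. The mean was 67.6-fold lower, with 0.37 ± 0.19 FPKM in the control libraries (mean ± SD, n = 3, as for all control values here; log2 change -4.94, SE 0.14, adjusted p = 6.39e-08). Nos2, the inducible nitric oxide synthase, went from 34.3, 33.8 and 35.9 FPKM to 1.11, 1.21 and 2.29 FPKM (log2 change -3.84, SE 0.14, adjusted p = 2.02e-07). For both genes the lowest IL-1β library was far above the highest co-culture library. Csf2 (granulocyte-macrophage colony-stimulating factor) fell from 103, 92.8 and 99.6 FPKM to 7.05, 4.58 and 11.7 FPKM (log2 change -3.58, SE 0.25, adjusted p = 8e-06). Csf3 (granulocyte colony-stimulating factor) fell from 97.5, 95.1 and 88.8 FPKM to 7.76, 5.55 and 7.77 FPKM (log2 change -3.57, SE 0.11, adjusted p = 6.39e-08). Both remained above their control means of 0.31 ± 0.27 and 0.067 ± 0.065 FPKM. Cxcl2, a neutrophil chemokine, stood at 228, 205 and 207 FPKM with IL-1β and 18.1, 17.6 and 27.3 FPKM with co-culture, a 10.2-fold lower mean. Cxcl3, its close relative, was the most abundant of the 12, at 1843, 1687 and 1691 FPKM against 333, 327 and 484 FPKM. In both chemokines co-culture replicate 3 was the highest of its group. Cxcl1, Cxcl2 and Cxcl3 are closely similar genes, as are the actins, ferritins and ribosomal protein genes with their copies, and the labels do not say how reads were divided between them.

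The rest of the 12 held a protease, 2 more chemokines, a stress-induced factor, an EGF receptor ligand and Plet1. Mmp13, the collagenase that cuts type II collagen, measured 481, 430.4 and 427 FPKM with IL-1β and 81.0, 74.9 and 101 FPKM with co-culture, 5.22 times lower, against 21.4 ± 1.28 FPKM in the controls. Ccl20, a lymphocyte chemokine, went from 301, 270.3 and 269 to 50.4, 46.5 and 66.4 FPKM, and Cx3cl1, the membrane-bound chemokine fractalkine, from 33.9, 34.6 and 33.9 to 6.62, 4.89 and 7.17 FPKM. These 3 genes kept several times their control level in co-culture. Gdf15, a stress-induced member of the TGF-β superfamily, behaved otherwise: it went from 11.1, 9.44 and 9.15 FPKM to 0.73, 1.49 and 1.22 FPKM, below the 1.96 to 3.16 FPKM of the control libraries. Ereg, an EGF receptor ligand, fell from 98.8, 79.3 and 95.9 to 18.5, 23.1 and 18.3 FPKM, and Plet1, a surface protein of epithelial progenitors, from 5.83, 5.44 and 4.35 to 0.46, 0.20 and 0.37 FPKM. By limma, Gdf15 had an adjusted p of 4.79e-06 and Ereg of 2.37e-06. Plet1 passed the filter of 1 FPKM through the IL-1β libraries alone, so a fall was built into its inclusion, and Il23a reached 1 FPKM in only 1 co-culture library.

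**Figure D2:**
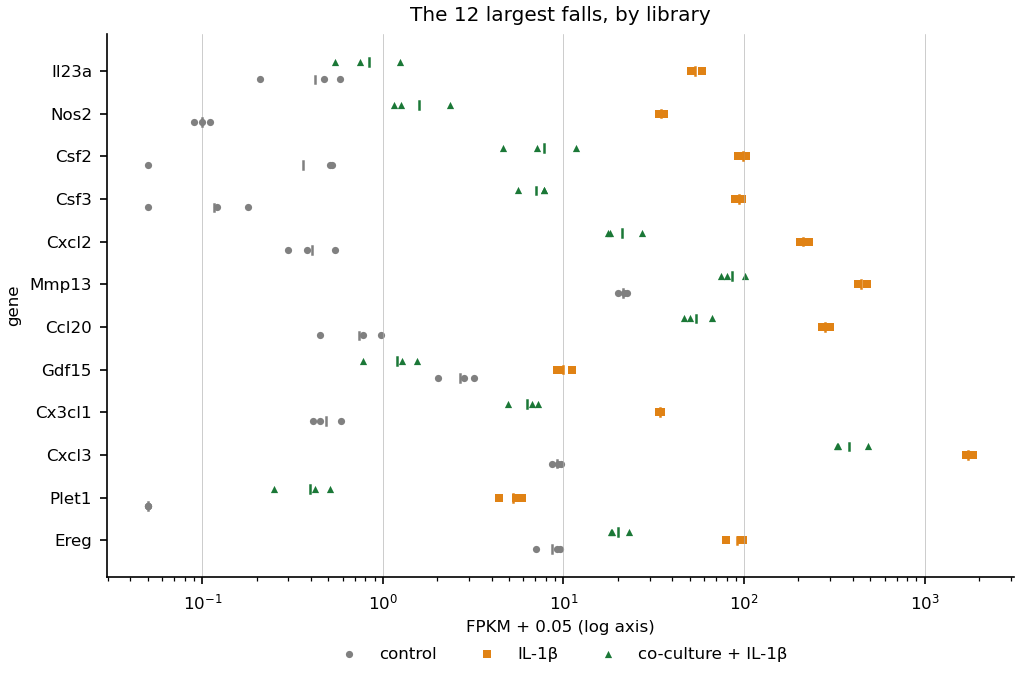
FPKM, plus 0.05 so that 0 can be drawn, on a log axis for the 12 genes with the largest falls; each symbol is a library and each short bar the mean of 3. Co-culture libraries lie below the IL-1β libraries for each gene, and the co-culture mean lies above the control mean for each one except Gdf15.

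Promoters are shown for 7 genes that fell, 3 from the 12 above and 4 from the lists that follow, chosen because they hold a match to an NF-κB-like or AP-1 pattern. Of the 12, Il23a, Csf2, Gdf15 and Cx3cl1 have a promoter entry with neither pattern. Taken from RefSeq on the build GRCr8, they are the 250 bases before the annotated start, 5′ to 3′ on the gene's strand, for 9248 of the 11568 genes that matched an entry. In the first set, capitals mark matches to the NF-κB-like pattern GGGNNNTTCC on either strand.
Cxcl2 (chr14:17467256-17467505, minus strand): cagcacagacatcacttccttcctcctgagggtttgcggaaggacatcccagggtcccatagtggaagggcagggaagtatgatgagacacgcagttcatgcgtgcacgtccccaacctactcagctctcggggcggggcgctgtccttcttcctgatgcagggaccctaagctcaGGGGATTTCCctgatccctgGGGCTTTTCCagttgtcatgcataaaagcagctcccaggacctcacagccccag
Ccl20 (chr9:91836909-91837158, plus strand): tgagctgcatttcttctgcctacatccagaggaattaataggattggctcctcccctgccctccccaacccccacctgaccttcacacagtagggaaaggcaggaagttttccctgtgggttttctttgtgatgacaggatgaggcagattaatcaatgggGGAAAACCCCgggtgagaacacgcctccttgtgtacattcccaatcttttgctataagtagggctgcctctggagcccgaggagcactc
Il6 (chr4:5894576-5894825, minus strand): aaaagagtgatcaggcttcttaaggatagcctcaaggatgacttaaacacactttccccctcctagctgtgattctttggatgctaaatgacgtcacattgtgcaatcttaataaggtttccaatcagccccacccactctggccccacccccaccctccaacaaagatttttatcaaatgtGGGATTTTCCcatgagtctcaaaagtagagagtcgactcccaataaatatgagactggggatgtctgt
Nfkbia (chr6:78597073-78597322, minus strand): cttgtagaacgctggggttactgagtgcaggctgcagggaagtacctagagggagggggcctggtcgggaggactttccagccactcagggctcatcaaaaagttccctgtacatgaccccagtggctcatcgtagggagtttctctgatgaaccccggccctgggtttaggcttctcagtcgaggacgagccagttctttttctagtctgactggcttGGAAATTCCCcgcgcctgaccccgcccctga
In the second set, capitals mark the AP-1 pattern TGANTCA, which reads the same on both strands.
Mmp13 (chr8:12782579-12782828, plus strand): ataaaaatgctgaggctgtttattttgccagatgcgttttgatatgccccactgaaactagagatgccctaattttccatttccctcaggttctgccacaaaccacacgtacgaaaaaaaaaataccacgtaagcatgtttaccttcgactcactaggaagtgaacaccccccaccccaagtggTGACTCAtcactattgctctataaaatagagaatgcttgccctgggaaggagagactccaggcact
Mmp3 (chr8:12925031-12925280, plus strand): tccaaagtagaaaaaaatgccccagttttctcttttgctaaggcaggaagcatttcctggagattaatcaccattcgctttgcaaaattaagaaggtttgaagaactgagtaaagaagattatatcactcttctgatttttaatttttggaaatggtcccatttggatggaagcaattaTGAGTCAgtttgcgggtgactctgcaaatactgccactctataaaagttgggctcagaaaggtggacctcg
Il11 (chr1:78098372-78098621, plus strand): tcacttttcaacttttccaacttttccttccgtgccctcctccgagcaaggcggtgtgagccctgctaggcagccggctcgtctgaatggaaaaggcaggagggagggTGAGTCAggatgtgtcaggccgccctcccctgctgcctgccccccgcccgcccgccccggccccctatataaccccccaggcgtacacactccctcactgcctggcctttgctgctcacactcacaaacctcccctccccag
The matches lay 74 and 54 bases before the start of Cxcl2, 89 before Ccl20, 68 before Il6 and 31 before Nfkbia for the NF-κB-like pattern, counted from the first base of the match. The AP-1 matches began 66, 71 and 142 bases before the starts of Mmp13, Mmp3 and Il11. Each pattern was found in 13 of the 60 promoters held for genes that fell at least 2-fold (21.7%). The AP-1 matches include Plet1 and Serpinb2, which passed the filter through the IL-1β libraries alone. Over all 27457 promoters in the table the NF-κB-like pattern was found in 4.53% and the AP-1 pattern in 6.36%, and over the promoters of the genes tested in 5.51% and 4.29%. Over all genes called, whatever the size of the change, the NF-κB-like pattern was in 7.71% of promoters of genes that fell and 7.06% of those that rose, and the AP-1 pattern in 7.38% and 4.59%. These are descriptions of letters in a window, and the lack of a match says nothing about the factor.

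Among cytokines and chemokines, 23 of 26 tested members fell and none rose, against 10.3% of all genes tested called lower, and the median log2 change of the list was -1.12. The shares of all genes tested, 10.3% lower and 12% higher, stand beside each list count that follows. Beyond the genes above, 3 members of the IL-6 family fell. Il6 went from 195, 179 and 164 FPKM to 55.2, 56.1 and 67.0 FPKM, Il11 from 31.7, 28.4 and 27.9 to 7.41, 6.62 and 7.47 FPKM, and Lif, leukaemia inhibitory factor, from 128, 120.5 and 115 to 32.6, 28.5 and 38.1 FPKM (log2 change -1.85, SE 0.11, adjusted p = 3.05e-06). No library of one group overlapped the other for these 3 genes. The genes for the interleukin-1 ligands also fell, Il1b by 0.96 and Il1a by 0.89 on the log2 scale. Ccl2, a monocyte chemokine, stood at 3882 to 4294 FPKM with IL-1β and 1770.5 to 2048 FPKM with co-culture. Smaller falls were seen for Il33, an alarmin of the interleukin-1 family (log2 change -0.39, SE 0.06, adjusted p = 0.00227), and for Csf1, the macrophage growth factor (log2 change -0.37, SE 0.03, adjusted p = 6.71e-06).

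Of 24 tested cytokine receptors and antagonists, 11 fell and 1 rose, with a list median of -0.13. The 1 that rose was Il1rl1, the receptor of interleukin 33 (ST2), at 203, 204 and 206 FPKM with IL-1β and 365, 391 and 353 FPKM with co-culture (log2 change 0.85, SE 0.04, adjusted p = 4.8e-07). The control libraries held 678 ± 17.4 FPKM, so the co-culture level lay between the other groups. Il13ra2, a decoy receptor of interleukin 13, fell by 0.95 on the log2 scale and Il13ra1, the signalling receptor of that cytokine, by 0.58. The signalling receptor of IL-1β, Il1r1, changed little: 45.4, 45.4 and 46.7 FPKM against 40.0, 41.9 and 40.4 FPKM (log2 change -0.16, SE 0.04, adjusted p = 0.0161). That call was lost without IL-1β replicate 3, at an adjusted p of 0.0592. Its accessory chain Il1rap measured 12.2 to 13.0 FPKM with IL-1β and 12.9 to 13.9 FPKM with co-culture and did not pass (adjusted p = 0.324). Il1rn, the receptor antagonist, fell from 7.55, 7.13 and 7.71 to 4.85, 4.23 and 4.62 FPKM (log2 change -0.61, SE 0.08, adjusted p = 0.00062). The decoy receptor Il1r2 was under 1 FPKM in all 6 libraries and was not tested.

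NF-κB genes fell nearly as a block: 21 of 23 tested members were lower and none higher, with a median of -0.55. The falls covered subunits and inhibitors alike. Map3k8, the kinase Tpl2 that links the receptor to the ERK pathway, had the largest, from 14.1, 14.4 and 15.0 FPKM to 4.56, 4.03 and 4.59 FPKM (log2 change -1.52, SE 0.07, adjusted p = 4.16e-07). Nfkbia, the inhibitor IκBα, fell from 108, 109 and 113 to 50.1, 48.5 and 60.8 FPKM, and Nfkbiz, the nuclear inhibitor-like factor IκBζ, from 50.1, 50.2 and 49.8 to 28.7, 29.2 and 29.3 FPKM. Among the subunits, Nfkb1 fell by 0.50, Relb by 0.51 and Rela by 0.20 on the log2 scale. Sod2, mitochondrial superoxide dismutase and a classical NF-κB target, went from 991, 932 and 949 to 418, 396 and 477 FPKM (log2 change -1.15, SE 0.06, adjusted p = 1.19e-06). The libraries of the groups were separate for each gene named here.

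In prostaglandin and nitric oxide synthesis 9 of 17 tested members fell and 3 rose. Ass1, argininosuccinate synthase, which recycles citrulline to arginine, fell from 29.6, 29.1 and 30.1 to 7.15, 7.98 and 7.11 FPKM (log2 change -1.86, SE 0.06, adjusted p = 6.39e-08), and the arginine transporter Slc7a2 from 31.0, 32.6 and 32.5 to 11.2, 11.6 and 13.2 FPKM. Gch1, which makes the cofactor that nitric oxide synthase needs, fell by 0.93 on the log2 scale. Prostaglandin E synthase, Ptges, fell from 795, 717 and 755 to 305, 265 and 308 FPKM, and Ptgs2, the inducible cyclooxygenase, from 305, 311 and 305 to 128, 126 and 139 FPKM. The 3 that rose were Hpgd, the enzyme that breaks prostaglandins down (7.04, 6.08 and 7.03 to 9.46, 10.3 and 9.78 FPKM, log2 change 0.49, SE 0.07, adjusted p = 0.000796), the constitutive cyclooxygenase Ptgs1 (46.8, 46.2 and 46.0 to 59.2, 60.6 and 56.6 FPKM, log2 change 0.34, SE 0.03, adjusted p = 9.22e-05) and the cytosolic synthase Ptges3 (by 0.12 on the log2 scale). The call of Ptges3 was lost in 10 of 17 alternatives, among them those without IL-1β replicate 2 (adjusted p = 0.0589), IL-1β replicate 3 (0.137), co-culture replicate 2 (0.0761) or co-culture replicate 3 (0.126).

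Complement and acute-phase genes fell in 9 of 16 tested members, with none higher. Complement C3 went from 64.5, 64.6 and 66.8 FPKM to 19.4, 19.0 and 24.4 FPKM (log2 change -1.60, SE 0.08, adjusted p = 1.43e-06). Lcn2, the iron-binding acute-phase protein lipocalin 2, stayed one of the most abundant of these transcripts, at 2819, 2673 and 2631 FPKM with IL-1β and 1041, 868 and 1072 FPKM with co-culture, against 12.4 ± 1.44 FPKM in controls. Ptx3, a long pentraxin, fell by 0.94 and C1s, a protease of the classical pathway, by 0.73 on the log2 scale. Antigen processing genes fell in 6 of 12, by at most 0.57 (Psmb9, an immunoproteasome subunit). Interferon-stimulated genes were called lower in 6 of 15, but this count was unstable: it was 1 without IL-1β replicate 3, 2 without IL-1β replicate 1, 3 without IL-1β replicate 2, and 2 without co-culture replicate 2 or 3. Of them Ifi27 kept its call under each alternative (118, 113 and 118 to 97.3, 85.1 and 91.8 FPKM, log2 change -0.34, SE 0.05, adjusted p = 0.00159).

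**Figure D3:**
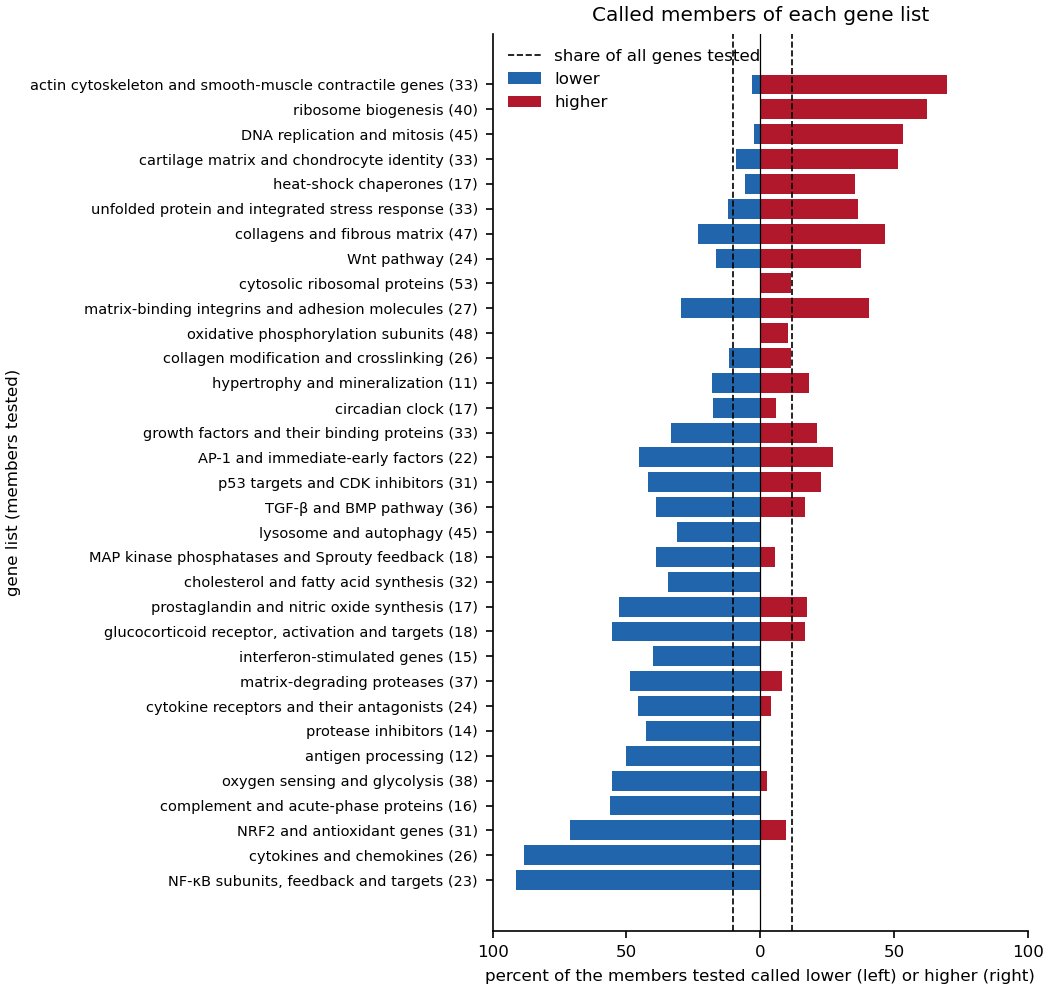
Bars give the percent of the tested members of each of 33 gene lists called lower (to the left) or higher (to the right) in co-culture, with the number tested in brackets; dashed lines mark 10.3% and 12%, the shares of all genes tested. NF-κB genes and cytokines have the highest shares of falls, and actin, ribosome biogenesis and mitosis genes the highest shares of rises.

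For the lists with no call in one direction, limma counts at an unadjusted p under 0.05 were also low, and no other tool was run. They were 0 for rises of cytokines, NF-κB genes, complement, interferon-stimulated, antigen processing and lysosome genes, and 0 for falls of ribosomal proteins and ribosome biogenesis factors. They were 1 for rises of protease inhibitors, 1 for falls of oxidative phosphorylation subunits and 2 for rises of cholesterol and fatty acid genes.

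Matrix-degrading proteases fell in 18 of 37 tested members and rose in 3, with a median of -0.21. Mmp9, gelatinase B, went from 129, 122 and 122 FPKM to 37.6, 35.4 and 42.0 FPKM (log2 change -1.67, SE 0.06, adjusted p = 2.02e-07), and Mmp10, stromelysin 2, from 306, 308 and 287 to 136, 125 and 148 FPKM. Mmp3, stromelysin 1, remained very abundant at 1071, 989 and 1084 FPKM in co-culture against 2272, 2130.0 and 2057 FPKM with IL-1β (log2 change -1.04, SE 0.06, adjusted p = 2.47e-06). Plat, tissue plasminogen activator, fell to 39.6, 35.9 and 39.8 FPKM from 79.6, 74.8 and 78.1 FPKM. The aggrecanase Adamts5 fell by 0.68 and Adamts4 by 0.37 on the log2 scale. The 3 proteases that rose moved little: Adam12 by 0.20, Mmp14, the membrane-anchored collagenase, by 0.12, and Mmp19 by 0.14. Mmp19 lost its call without IL-1β replicate 1 (adjusted p = 0.0862), co-culture replicate 1 (0.0652) or co-culture replicate 2 (0.0551). Inhibitors fell as well, in 6 of 14 tested members with none higher. Of these, Serpinb2 passed the filter of 1 FPKM through the IL-1β libraries alone. Timp3, the inhibitor of metalloproteinases and aggrecanases that binds to the matrix, went from 44.1, 45.2 and 43.4 to 12.1, 12.3 and 14.9 FPKM, close to the 9.84 ± 0.51 FPKM of controls (log2 change -1.68, SE 0.07, adjusted p = 4.16e-07). Slpi, a serine protease inhibitor, fell from 235, 206 and 211 to 112, 93.9 and 108 FPKM.

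Antioxidant and iron-storage genes formed another large falling group: 22 of 31 members of the NRF2 list were lower and 3 higher, with a median of -0.31. NRF2 is a transcription factor that raises detoxifying and glutathione-making enzymes under oxidative stress. Hmox1, heme oxygenase 1, measured 378, 348 and 353 FPKM with IL-1β and 114, 120.2 and 113 FPKM with co-culture (log2 change -1.63, SE 0.04, adjusted p = 6.39e-08). The co-culture libraries lay under the control libraries, at 135 to 149 FPKM. Fth1, the ferritin heavy chain and one of the most abundant transcripts of these cells, fell from 4979, 4712 and 4829 to 2355, 2104 and 2249 FPKM (log2 change -1.11, SE 0.04, adjusted p = 2.47e-07), with controls at 1213 ± 32.4 FPKM. Srxn1, sulfiredoxin, fell from 35.1, 34.0 and 35.5 to 18.3, 19.3 and 19.5 FPKM, again under the 24.1 to 26.4 FPKM of the controls. The cystine transporter Slc7a11 fell by 0.64, thioredoxin reductase Txnrd1 by 0.44 and the quinone reductase Nqo1 by 0.27 on the log2 scale. The zinc-binding metallothioneins Mt1 and Mt2A, which are close copies, fell by 0.97 and 1.03. Members that rose were Gpx3, a secreted glutathione peroxidase (up by 0.41), the secreted superoxide dismutase Sod3 (up by 0.25) and Gss, glutathione synthetase (up by 0.19). Of 24 list members with a promoter entry, 5 held the pattern TGACNNNGC of antioxidant response elements on either strand (20.8%), against 10.2% of all promoters in the table, 12.5% of those of the genes tested and 12.4% of those of genes called lower.

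Oxygen-sensing and glycolysis genes fell in 21 of 38 members and rose in 1. Egln3, an oxygen-dependent prolyl hydroxylase that marks HIF factors for destruction, went from 118, 117 and 119 FPKM to 35.1, 34.8 and 44.5 FPKM, against 2.15 ± 0.21 FPKM in controls (log2 change -1.61, SE 0.09, adjusted p = 1.52e-06). Epas1, which encodes HIF-2α, fell from 39.1, 43.0 and 43.3 to 21.3, 20.1 and 21.4 FPKM, and Hif1a by 0.46 on the log2 scale. The glucose transporters split: Slc2a1 fell from 142, 138 and 141 to 96.0, 95.5 and 91.2 FPKM (log2 change -0.57, SE 0.03, adjusted p = 1.6e-06), while Slc2a3 rose from 3.35, 4.03 and 1.97 to 5.17, 5.59 and 6.04 FPKM (log2 change 0.71, SE 0.16, adjusted p = 0.0108). Per length, Slc2a3 was the less abundant of the pair in every library. Ddit4, an inhibitor of mTOR induced by low oxygen and other stresses, fell from 61.2, 60.0 and 57.5 to 33.5, 32.1 and 33.5 FPKM. Hexokinase 2 (Hk2) fell by 0.27 and pyruvate kinase (Pkm) by 0.17 on the log2 scale. Oxidative phosphorylation subunits showed no comparable change: 5 of 48 were higher and none lower. That share of rises was near the 12% of all genes, but 333 of the 1176 genes averaging 100 FPKM or more were higher. The count of subunits that rose was 10 without IL-1β replicate 1 and 2 without IL-1β replicate 2 or 3. It was 3 without any one of the co-culture libraries, and from 2 to 8 in the other alternatives.

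Lysosome and autophagy genes fell in 14 of 45 members with none higher, and in 9 without IL-1β replicate 1. Gabarapl1, an autophagosome membrane protein, had the largest of these falls, from 58.0, 55.0 and 52.9 to 36.9, 34.9 and 39.4 FPKM, followed by Ctsh, cathepsin H, from 121, 112 and 110.3 to 86.9, 75.7 and 87.2 FPKM. Cholesterol and fatty acid synthesis genes fell in 11 of 32 with none higher, all by less than 0.4 on the log2 scale; 7 fell without IL-1β replicate 1 and 6 without IL-1β replicate 3. Insig1, a sterol sensor, fell by 0.35 and Hmgcs1, an early enzyme of the pathway, by 0.22.

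The 12 largest rises, chosen as the falls were and among genes whose libraries did not overlap, held Hapln1, Susd5 and Scrg1 of the cartilage list. Hapln1, the link protein that fixes aggrecan to hyaluronan, stood at 11.5, 13.8 and 14.4 FPKM with IL-1β and 32.6, 32.1 and 28.4 FPKM with co-culture, 2.34 times higher on average (log2 change 1.17, SE 0.08, adjusted p = 4.35e-06). Control libraries held 102 ± 1.04 FPKM, so the co-culture libraries lay between the other groups. Lrrc17, a secreted leucine-rich repeat protein, rose from 3.29, 3.74 and 3.19 to 7.58, 9.22 and 6.92 FPKM. Susd5, a membrane protein with a hyaluronan-binding link module, rose from 22.2, 22.6 and 22.6 to 40.4, 42.4 and 38.3 FPKM (log2 change 0.82, SE 0.04, adjusted p = 5.78e-07). Aspn (asporin), of the small leucine-rich proteoglycans, rose from 2.44, 2.49 and 2.94 to 5.54, 4.51 and 5.45 FPKM, and Ogn (osteoglycin, listed as gene-Ogn) from 4.67, 5.26 and 5.57 to 9.50, 9.03 and 9.39 FPKM. In these 5 genes the IL-1β libraries were the lowest of the 3 groups, as they were in all of the 12 except Slc2a3. Anxa8, an annexin, rose from 10.2, 10.1 and 11.1 to 19.0, 22.0 and 17.9 FPKM and Scrg1, a small secreted protein of chondrogenic cells, from 2.95, 3.44 and 2.88 to 6.22, 5.57 and 5.71 FPKM. Col6a3, a chain of the pericellular type VI collagen, rose from 37.4, 39.1 and 40.1 to 64.3, 67.6 and 58.9 FPKM (log2 change 0.69, SE 0.05, adjusted p = 7.49e-06).

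**Figure D4:**
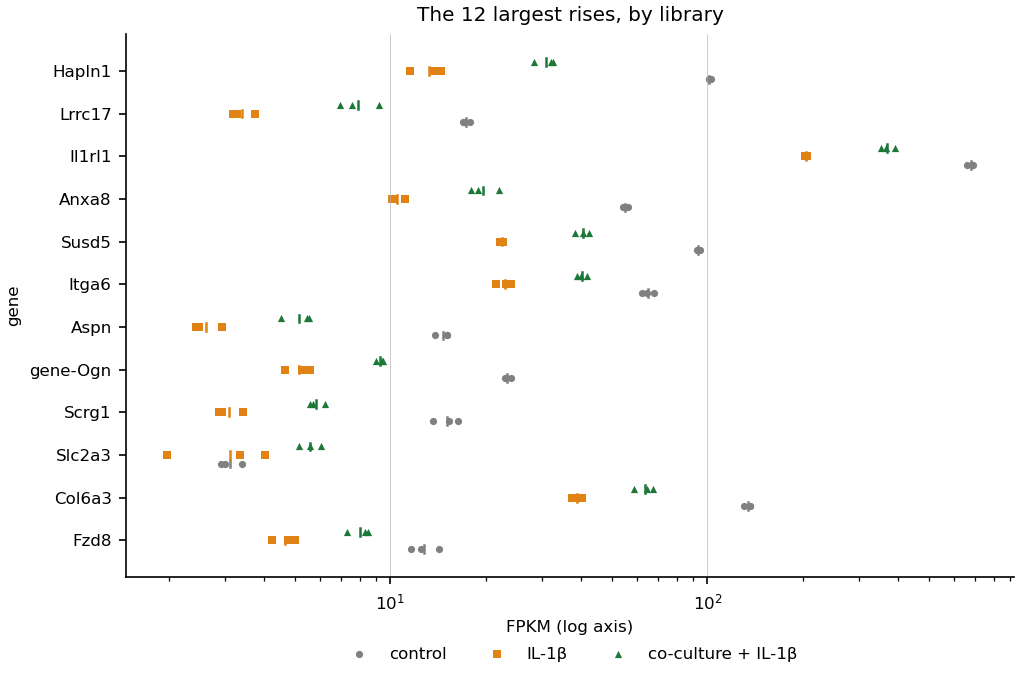
FPKM on a log axis for the 12 genes with the largest rises; each symbol is a library and each short bar the mean of 3. Co-culture libraries lie above the IL-1β libraries for each gene, and below the control libraries for each one except Slc2a3.

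Of 33 tested genes of cartilage matrix and chondrocyte identity, 17 rose and 3 fell, with a median of 0.22, against 12% of all genes called higher. Col2a1 rose from 164, 168 and 173 FPKM to 263, 258 and 229 FPKM (log2 change 0.57, SE 0.05, adjusted p = 3.58e-05) and Acan from 87.0, 91.0 and 90.5 to 139, 148 and 134 FPKM (log2 change 0.64, SE 0.04, adjusted p = 2.56e-06). For Col2a1 the co-culture mean of 250.0 ± 18.3 FPKM (SD, n = 3) compares with 1042 ± 32.0 FPKM in controls. Sox9, the master transcription factor of chondrocytes, was scarce and rose from 2.99, 3.67 and 3.56 to 4.82, 4.60 and 4.13 FPKM (log2 change 0.33, SE 0.08, adjusted p = 0.0121). Col11a1, of the minor fibril collagen XI, rose by 0.38, and Chst3, a chondroitin sulfotransferase, by 0.33 on the log2 scale. The 3 that fell were Prg4, the surface lubricant lubricin (292, 289.7 and 269 to 125, 114 and 130.2 FPKM, log2 change -1.20, SE 0.05, adjusted p = 4.02e-07), the transcription factor Sox5 (by 0.36) and the chondroitin sulfate enzyme Csgalnact1 (by 0.27). For Prg4 the IL-1β libraries exceeded the controls, at 13.7 ± 0.19 FPKM. Mgp, matrix Gla protein, an inhibitor of mineralization, likewise fell from 2831, 2607 and 2624 to 1181, 984 and 1148 FPKM, with 379.5 ± 16.8 FPKM in controls.

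The fibrous matrix split. Of 47 collagens and fibrous matrix genes 22 rose and 11 fell. Among those that rose, Col3a1 (type III collagen) went up by 0.47, Col6a1 (type VI collagen) by 0.43, Thbs2 (thrombospondin 2) by 0.42 and Ctgf, connective tissue growth factor, by 0.46 on the log2 scale. Tgfbi, a matrix protein induced by TGF-β, rose from 77.0, 74.8 and 72.5 to 118, 118 and 112 FPKM (log2 change 0.63, SE 0.03, adjusted p = 1.18e-06). Among those that fell, the small proteoglycans Lum (lumican) and Dcn (decorin) went from 795, 751 and 748 to 347, 330.0 and 400.1 FPKM and from 336, 321 and 315 to 195, 183 and 202 FPKM. Emilin1, an elastic fibre protein, fell from 205, 204 and 213 to 130.4, 124 and 130.1 FPKM (log2 change -0.69, SE 0.03, adjusted p = 4.16e-07). Col1a1, the main chain of type I collagen, moved little, from 877 ± 32.1 to 967 ± 37.5 FPKM (SD, n = 3; log2 change 0.14, SE 0.04, adjusted p = 0.0259). Its call was lost without IL-1β replicate 1 (adjusted p = 0.0775), IL-1β replicate 2 (0.0539), co-culture replicate 1 (0.0749) or co-culture replicate 2 (0.0741), and in 4 other alternatives. In the list of collagen modification and crosslinking, 3 of 26 members rose and 3 fell, shares near those of all genes. Loxl3 rose by 0.52 and Loxl4 by 0.36 on the log2 scale, while P4ha2 fell by 0.48, P4hb by 0.25 and Lox by 0.19.

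Actin and contractile genes rose in 23 of 33 members and fell in 1, with a median of 0.20. Acta2, smooth muscle α-actin, went from 192, 185 and 190.3 FPKM to 300.2, 296 and 256 FPKM (log2 change 0.58, SE 0.05, adjusted p = 4.46e-05), with 665 ± 7.52 FPKM in controls. Tagln (transgelin), an actin-binding protein, rose from 692, 652 and 676 to 952, 908 and 883 FPKM (log2 change 0.44, SE 0.03, adjusted p = 1.6e-05). Vcl (vinculin), of focal adhesions, rose by 0.40, the myosin light chain Myl9 by 0.45 and calponin, Cnn1, by 0.46 on the log2 scale. The 1 member that fell, Tagln2, moved by 0.12 and was not called without co-culture replicate 2. A CArG box, the binding pattern of SRF, was found in 3 of the 27 promoters held for the list (11.1%), in 1.50% of all promoters, in 1.19% of those of the genes tested and in 1.94% of those of genes called higher. The matches were in Cnn2, Actg1 and Srf. Acta2, Vcl and Cnn1 had none, and Tagln and Myl9 had no promoter entry. Integrins and adhesion molecules went both ways, with 11 of 27 higher and 8 lower. Itga6, a laminin receptor chain, rose from 21.6, 24.0 and 23.2 to 38.7, 41.8 and 39.9 FPKM (log2 change 0.78, SE 0.05, adjusted p = 3.51e-06) and Itga8 by 0.56, whereas the collagen receptor chain Itga2 fell by 0.84 and N-cadherin, Cdh2, by 0.49.

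Genes of growth and division rose modestly and together. Ribosome biogenesis factors were higher in 25 of 40 members and lower in none, with a median of 0.17. Npm1 (nucleophosmin), a nucleolar chaperone, measured 1413, 1408 and 1375 FPKM with IL-1β and 1658, 1664 and 1709 FPKM with co-culture (log2 change 0.26, SE 0.02, adjusted p = 5.11e-05). Ncl, nucleolin, rose from 472, 469 and 462 to 543, 581 and 579 FPKM (log2 change 0.28, SE 0.03, adjusted p = 0.000235). Of the ribosomal proteins themselves 6 of 53 were higher and none lower, a share near that of all genes. Abundant genes were called more often: 333 of the 1176 genes averaging 100 FPKM or more were higher. The ribosomal protein count was 15 with quantile normalization and 3 with median-of-ratios scaling or with only the 6 libraries compared. With no filter or no mean-variance trend it was 2. It was 10 without IL-1β replicate 1, 1 without IL-1β replicate 2 or 3 or co-culture replicate 2, and 3 without co-culture replicate 1 or 3. DNA replication and mitosis genes rose in 24 of 45 members and fell in 1, with a median of 0.13. Cdc20, an activator of the anaphase-promoting complex, rose from 119, 114 and 123 to 158, 150.3 and 150.1 FPKM (log2 change 0.36, SE 0.03, adjusted p = 6.17e-05), Prc1, a spindle midzone protein, from 106, 107 and 107 to 127, 134 and 138 FPKM, and Ube2c, a ubiquitin enzyme of mitotic exit, from 198, 188 and 187 to 252, 249 and 228 FPKM. The mitotic kinases Plk1 and Aurka rose by 0.28 and 0.30 on the log2 scale. Ccnb1, cyclin B1, rose by 0.26. The member that fell was Ccne1, cyclin E1 (by 0.27). Controls held 173 ± 2.60 FPKM of Cdc20.

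The p53 and CDK inhibitor list moved mainly the other way, with 13 of 31 lower and 7 higher. Cdkn1a, the CDK inhibitor p21, fell from 202, 194 and 193 FPKM to 123, 121 and 116 FPKM, under the 138 to 142 FPKM of the controls (log2 change -0.71, SE 0.03, adjusted p = 4.16e-07). Mdm2, which encodes the ubiquitin ligase of p53, fell from 81.8, 81.2 and 80.2 to 48.3, 51.9 and 54.1 FPKM, against 70.6 to 73.9 FPKM in controls (log2 change -0.65, SE 0.04, adjusted p = 3.51e-06). Fas, a death receptor, fell by 0.62, Tp53inp1 by 0.51 and Bax, a pro-apoptotic protein, by 0.18. Among those that rose were Lmnb1 (lamin B1) and Hmgb2, nuclear proteins that decline in senescent cells, from 51.8, 54.3 and 55.0 to 70.4, 70.8 and 67.1 FPKM and from 191, 199.9 and 202 to 240.3, 253 and 256 FPKM. The count of rises was 4 without IL-1β replicate 1, IL-1β replicate 2 or co-culture replicate 2.

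Stress-response genes showed a mixed pattern. Of 33 members of the unfolded protein and integrated stress response list 12 rose (36.4%) and 4 fell (12.1%). The shares of all genes tested were 12% and 10.3%, so the share of falls was near that of all genes. The largest change was the fall of Gdf15. The falls numbered 2 without IL-1β replicate 1. Chac1, a glutathione-degrading target of ATF4, rose by 0.42, Atf5 from 61.2, 60.9 and 60.9 to 76.0, 70.5 and 70.3 FPKM, and Herpud1, of the degradation pathway of the endoplasmic reticulum, by 0.25. Hspa5, the main chaperone of that compartment, rose from 718, 715 and 717 to 783, 777 and 799 FPKM (log2 change 0.13, SE 0.02, adjusted p = 0.00174). Heat-shock chaperones rose in 6 of 17 (35.3%) and fell in 1. Among them Hspa8 went from 1158, 1126 and 1117 to 1336, 1318 and 1332 FPKM (log2 change 0.23, SE 0.02, adjusted p = 0.000102).

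Growth factor pathways changed member by member. In the TGF-β and BMP list 6 of 36 rose (16.7%) and 14 fell (38.9%), against 12% and 10.3% of all genes tested. Of the TGF-β ligands, Tgfb3 rose from 33.2, 33.5 and 33.7 to 48.8, 49.6 and 45.7 FPKM (log2 change 0.51, SE 0.03, adjusted p = 4.99e-06) and Tgfb2 from 12.1, 13.7 and 14.0 to 17.6, 15.7 and 16.4 FPKM (log2 change 0.30, SE 0.06, adjusted p = 0.00508). Tgfb1 measured 83.5 to 86.5 FPKM with IL-1β and 75.3 to 81.8 FPKM with co-culture and did not pass (adjusted p = 0.126). Of the 3 BMP ligands on the list, Bmp6 fell from 28.1, 30.2 and 33.3 to 7.69, 8.80 and 10.6 FPKM (log2 change -1.66, SE 0.11, adjusted p = 4.35e-06) and Bmp2 by 1.02 on the log2 scale, and Bmp4 did not pass (adjusted p = 0.752). Of the BMP targets Id1, Id2, Id3 and Id4 on the list, only Id2 is reported here, and it rose by 0.46. Activin A (Inhba) and its binding protein follistatin (Fst) fell together, by 0.53 and 0.51. The EGF receptor ligands Areg and Tgfa fell beside Ereg, by 0.96 and 0.42. Errfi1, a feedback inhibitor of the EGF receptor, fell from 132, 134 and 131 to 86.9, 82.4 and 81.6 FPKM. Angpt1, angiopoietin 1, fell from 26.2, 26.8 and 27.0 to 12.9, 12.5 and 14.0 FPKM (log2 change -0.97, SE 0.06, adjusted p = 2.19e-06). Igf1, an anabolic factor of cartilage, was scarce and rose from 3.74, 3.08 and 3.14 to 5.22, 5.43 and 5.20 FPKM (log2 change 0.54, SE 0.07, adjusted p = 0.000403). The FGF receptors Fgfr2 and Fgfr3 rose by 0.43 and 0.45.

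Among Wnt genes 9 of 24 rose (37.5%) and 4 fell (16.7%), against 12% and 10.3% of all genes tested. With testing limited to genes averaging 5 FPKM or more, 4 rose. The receptor Fzd8 rose from 4.99, 4.74 and 4.22 to 7.31, 8.51 and 8.31 FPKM (log2 change 0.68, SE 0.08, adjusted p = 0.000338). The transcription factor Lef1 rose by 0.56 and the Wnt inhibitor Sfrp1 by 0.31 on the log2 scale. The secreted antagonist Sfrp2 fell from 146, 156 and 154 to 61.1, 56.6 and 72.3 FPKM (log2 change -1.26, SE 0.13, adjusted p = 9.08e-05), with 6.09 ± 1.32 FPKM in controls. The AP-1 family split by member: Fosl1 and Fosl2 fell by 0.38 and 0.40 and Junb by 0.18, while Fos and Jun rose by 0.38 and 0.22. Fos was not called without IL-1β replicate 3 (adjusted p = 0.0557) or co-culture replicate 3 (0.0506). Egr1, an immediate-early factor, rose from 73.8, 81.8 and 71.5 to 95.8, 96.3 and 95.8 FPKM and Klf2 by 0.56. Phlda1, which is induced by growth factor signalling, fell from 91.3, 88.3 and 87.9 to 53.7, 48.9 and 50.9 FPKM (log2 change -0.79, SE 0.04, adjusted p = 1.52e-06). The MAP kinase phosphatase and Sprouty list held 7 falls and 1 rise among 18 members, and 4 falls without IL-1β replicate 1, IL-1β replicate 2 or co-culture replicate 2.

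Glucocorticoid-linked genes fell in 10 of 18 members and rose in 3, but several of them, such as Lcn2, Nfkbia and Mt2A, also stand in other lists. Nr3c1, the glucocorticoid receptor, fell from 24.1, 24.7 and 25.0 to 19.6, 21.1 and 20.8 FPKM (log2 change -0.25, SE 0.04, adjusted p = 0.0011), and Hsd11b1, which regenerates active glucocorticoid, by 0.53. Tsc22d3, a standard target of the receptor, stood at 15.9 to 17.7 FPKM with IL-1β and 15.9 to 16.8 FPKM with co-culture and did not pass (adjusted p = 0.799). Sgk1, a kinase gene among such targets, rose by 0.23. Clock genes were called in 4 of 17 members, a share near the 22.4% of all genes; 3 of these 4 lost their call in 1 or more leave-one-out fits, and the fourth was Bhlhe40 (log2 change -0.35, SE 0.05, adjusted p = 0.000711).

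Markers of other cell types were measured beside these groups. The dermal fibroblast markers, whose sums in the IL-1β and co-culture libraries stand above, summed to 962 to 976 FPKM in controls. Most of the sum was Lum, Dcn, Sfrp2 and Thy1, a surface protein of mesenchymal cells (311 to 316 and 281 to 305 FPKM). Of 21 markers tested 4 rose (19.0%) and 5 fell (23.8%), against 12% and 10.3% of all genes tested. The rises numbered 2 without IL-1β replicate 1, IL-1β replicate 2 or co-culture replicate 2, and 1 without IL-1β replicate 3. Ogn, a further marker listed as gene-Ogn, was not matched and is outside these counts and sums. It rose from 4.67, 5.26 and 5.57 to 9.50, 9.03 and 9.39 FPKM (log2 change 0.74). Dpp4, Pi16, Cd34, Entpd1 and Clec3b, which define dermal or adventitial fibroblasts, were under 1 FPKM in all 6 libraries, apart from Pi16 in 1 co-culture library (0.68 to 1.05 FPKM over the 3). Twist1, a mesenchymal transcription factor, rose from 53.2, 54.9 and 57.8 to 70.7, 69.8 and 67.5 FPKM. Skeletal muscle markers were present throughout, with summed levels of 605 to 639 FPKM with IL-1β and 581 to 642 FPKM with co-culture. In controls they summed to 277 to 289 FPKM. The muscle actins Actc1 and Acta1 were the 2 of 12 tested markers that fell, from 145, 133 and 144 to 129, 124 and 120.5 FPKM and from 89.2, 90.8 and 85.4 to 80.7, 74.8 and 73.0 FPKM. Acta1 lost its call without IL-1β replicate 1 (adjusted p = 0.0743), IL-1β replicate 2 (0.0847), co-culture replicate 2 (0.0835) or co-culture replicate 3 (0.0884). The other 10 tested markers were not called, and some not named here hold much of the sum. Of the scarce members, muscle creatine kinase, Ckm, was at most 2.02 FPKM, and Pax7 at most 0.11 FPKM. Of 14 macrophage and leukocyte markers, 4 were tested, and the summed level was 27.6 to 29.9 FPKM and 25.8 to 26.9 FPKM. Endothelial, keratinocyte, bone and glial or pericyte markers summed to under 50 FPKM each in every library of both groups, and erythroid markers to at most 0.22 FPKM. The part of these cells in the results was not tested.

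The summed adipocyte markers stood out, at 174 to 202 FPKM with IL-1β and 46.3 to 62.1 FPKM with co-culture. Nearly all of this was Fabp4, a fatty acid carrier, which fell from 185, 157 and 167 to 45.3, 33.6 and 49.8 FPKM (log2 change -1.98, SE 0.16, adjusted p = 2.06e-05). Cd36, a fatty acid transporter, fell from 5.58, 4.74 and 5.0 to 1.83, 2.25 and 1.85 FPKM. Of 4 tested markers 3 were lower and none higher, against 10.3% of all genes tested called lower. The third was Lpl, from 6.12, 6.81 and 6.82 to 5.54, 5.71 and 5.36 FPKM (limma adjusted p = 0.0363). It kept its call in 10 of 17 alternatives. Of the 10 markers, 6 were under 1 FPKM in all 6 libraries. Among these, Adipoq (adiponectin) ranged from 0.05 to 0.22 FPKM with IL-1β and 0.06 to 0.11 FPKM with co-culture. Plin1 (perilipin) ranged from 0 to 0.23 and 0.12 to 0.19 FPKM, and Lep (leptin) was listed at 0 in all 6 libraries.

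The co-culture libraries were not equally far from the IL-1β libraries. Among the 91 genes that fell at least 2-fold, co-culture replicate 3 was the highest of its group for 62 and replicate 2 the lowest for 61. The mean log2 difference of the 26 cytokines from the IL-1β mean was -1.52 in co-culture replicate 1, -1.59 in replicate 2 and -1.35 in replicate 3. For NF-κB genes it was -0.63, -0.72 and -0.55. Actin genes had the same order of size for replicates 1 and 3, at 0.26 and 0.18, while mitosis genes differed less, at 0.11, 0.13 and 0.13. All 3 co-culture libraries lay on the same side of the 3 IL-1β libraries for each of the 12 lists plotted. These are a selection of the 33 lists, and some of those left out overlapped. For ribosomal proteins the IL-1β libraries ranged from -0.051 to 0.060 and the co-culture libraries from 0.032 to 0.052. For oxidative phosphorylation subunits the ranges were -0.039 to 0.055 and 0.017 to 0.043.

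**Figure D5:**
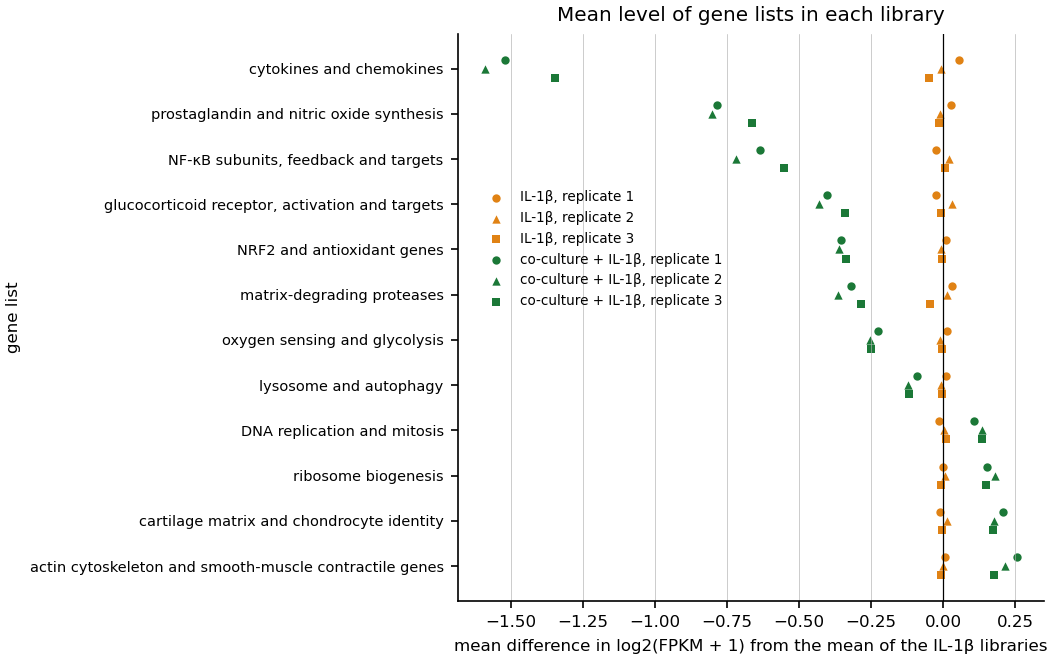
Each point is a library; the x axis is the mean over the tested members of a gene list of the difference in log2(FPKM + 1) from the mean of the 3 IL-1β libraries. The 12 lists drawn are a selection of the 33. In all 12 the 3 co-culture libraries are separate from the IL-1β libraries. Replicate 3 is nearest to the IL-1β libraries for cytokines and NF-κB genes.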

How the data were processed

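The 9 libraries of polyA-enriched RNA from cultured rat chondrocytes fell into 3 groups of 3 by their labels. The authors deposited 1 matrix of FPKM values per gene and library, per the file headers; no label names the aligner, counter or annotation, and the submitters' processing notes name GRCm38, a mouse build. The role of that build and its effect on the levels were not tested. FPKM gives no depth, so no count model was used. An exact 0 can be a failed estimate: 24 genes tested were listed at 0 in a library and above 5 FPKM in another of the same group, and none of these was called.

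Values were analysed as log2(FPKM + 1) with limma 3.58.1 (R 4.3.3), with a mean-variance trend, all 9 libraries sharing 1 estimate of spread, and Benjamini-Hochberg adjustment over the 11568 genes with at least 1 FPKM in at least 3 of the 6 libraries compared. A fold change on this scale understates the change of low genes; fold differences of means are of plain FPKM. Genes named are the 12 largest rises and falls among called genes with separate libraries and at least 5 FPKM, up to 4 called genes of smallest p per list (or the 2 most abundant where fewer than 2 were called), and 19 fixed genes; others were named after their values were seen, and some genes are not reported here. Placeholder symbols, such as those starting with LOC or RGD, were left out of the 12 largest rises and falls. The members and the 43 lists were chosen with earlier results of these data known. Of the gene identifiers tested, 96.7% were found in RefSeq's table of GRCr8. Alternatives were other pseudocounts (0.1, 0.5), filters, scalings and fits, and leaving out each library. Figures were drawn with matplotlib 3.10.9 in Python 3.11.15.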

Additional observations from a re-analysis of the deposited data

How the results depend on the processing

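Over 17 alternatives the number of genes called ranged from 1934 (without co-culture replicate 2) to 2626 (quantile normalization), against 2588, and no gene called in both changed direction. The share of calls that were higher was 53.8% and ranged from 47.1% (median-of-ratios scaling) to 57.2% (mean FPKM of at least 5). No alternative moved the median log2 change of all genes tested beyond 0.03. Falls of at least 2-fold ranged from 73 to 135. Rises of at least 2-fold were few and depended on the pseudocount: 3 with a pseudocount of 1, 5 with 0.5 and 11 with 0.1. Leaving out 1 library gave between 2 and 8 such rises, with 7 without IL-1β replicate 3 and 8 without co-culture replicate 1.

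The same-numbered libraries of the groups did not deviate together (r of 0.05, 0.03 and -0.04 across genes), so the numbers were not taken as pairing. With a replicate block 2278 genes were called, 1196 higher and 1082 lower, 3 and 91 of them by at least 2-fold, and 84.9% of the 2588 genes kept their call.

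Of 231 genes chosen for naming that were called, all kept their direction in every alternative and 207 kept their call in every one. Tsc22d3, which was not called, stood at a log2 change between -0.0604 and 0.0097 with 1 library left out and changed sign without IL-1β replicate 2. Bmp4, also not called, ranged from -0.226 to 0.00138 and changed sign without co-culture replicate 2. The cause of these shifts was not tested. With 3 libraries a group and an unknown depth, small differences of scarce genes are the least certain: 12.7% of genes with a mean of 1 to 5 FPKM were called, against 41.5% of those above 100 FPKM.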
